A study of Mus musculus with 4 samples.

Results

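AP-1 is a family of transcription factors that bind DNA as dimers, and the 10 mouse genes described here encode its Fos, Jun, Atf3 and small Maf proteins. They were taken by name from a table of 32151 analysed genes: Fos, Fosb, Fosl1, Fosl2, Jun, Junb, Jund, Atf3, Maff and Mafk, all of which were listed. RNA-seq of whole kidney compared 2 ADPKD libraries with 2 WT libraries. ADPKD stands for autosomal dominant polycystic kidney disease, in which cysts replace the kidney tubules. ADPKD mice had the genotype Pkd1fl/fl; Cre/Esr1+, a floxed Pkd1 gene with a Cre recombinase switched on by tamoxifen, and WT mice are labelled wildtype. Tamoxifen at 10 mg/kg on postnatal day 10 is given in the labels of all 4 samples, as is a note on specific pathogen free housing that names the floxed mice alone, so what WT mice received is not certain. The age at collection and the promoter driving Cre are not given in the sources used here. The labels do not state whether each library is a different animal, and the p-values measure only the spread between these libraries.

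Each protein of the family has a basic stretch that contacts DNA and a leucine zipper that joins it to a partner. Fos proteins need a partner such as a Jun protein, whereas Jun proteins can also pair with themselves. Small Maf proteins lack an activation domain and pair mainly with the CNC factors, such as NRF2, and with the Bach repressors. Fos, Fosb, Jun, Junb, Atf3 and Maff are immediate-early genes, induced within minutes by growth factors, cytokines and stress through MAP kinases, while Jund is transcribed more constantly in many tissues. In injured kidney tubules Fos, Jun and Atf3 are classical early response genes.

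Libraries held between 18001308 and 19955120 reads assigned to genes, recovered from the deposited values. Pkd1, the targeted gene, stood at 2.48 and 2.08 FPKM (fragments per kilobase of exon, scaled to the reads assigned in the library) in ADPKD kidney, against 1.97 and 2.12 FPKM in WT kidney. The difference did not pass the test (limma adjusted p = 0.703), and a level summed over every exon cannot show the loss of some of them. Xist, expressed from an inactive X chromosome in females, was listed at 0.0180 FPKM in ADPKD replicate 1, 29.6 FPKM in ADPKD replicate 2, and 0.0121 and 0.0217 FPKM in WT, and the Y-linked gene Ddx3y at 15.1 FPKM in ADPKD replicate 1, 0.0482 FPKM in ADPKD replicate 2, and 11.5 and 8.46 FPKM in WT. The ADPKD libraries thus carry opposite sex markers and did not come from a single animal, while for the WT pair the spread may be technical. Replicates were distinct libraries, since the chi-square of their reads per gene was 59.7 in ADPKD and 52.8 in WT, far above counting noise.

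Promoter sequence of the members was examined because these genes were higher together in ADPKD kidney. RefSeq start sites (build GRCm38.p6) were found for 9 of the 10 genes, with 11 windows of 250 bases before a start. Both strands were searched for TGACG, the half-site of the cAMP response element (CRE) bound by CREB and ATF proteins, for the full element TGACGTCA, for the AP-1 site TGANTCA, and for TGACATCA, the AP-1-like element known from the Jun promoter. TGACGTCA contains TGACG on each strand, so a full element also counts as a half-site. TGACG occurred in 7 of the 11 windows, those of Fos, Fosb, Junb, Atf3 and Mafk and a pair of Maff windows, and in 17.7% of 32817 windows of all genes. By gene that was 6 of the 9. The windows of all genes were not matched to those of the members for base content, and enrichment was not tested. The full element was found before a start of Maff, and 1.55% of all windows held it. TGACATCA lay from position -45 to -38 before the Jun start, and at the same distance before another Maff start, and 2.93% of all windows held it. The AP-1 site TGANTCA was found in 0 of the windows of these genes, against 6.75% of all windows. The 130 bases before the start are shown for the genes with a match, 5′ to 3′ on the gene's strand, with TGACG (or CGTCA, the same site on the other strand) and TGACATCA in capitals.
Fos (chr12:85473760-85473889, plus strand): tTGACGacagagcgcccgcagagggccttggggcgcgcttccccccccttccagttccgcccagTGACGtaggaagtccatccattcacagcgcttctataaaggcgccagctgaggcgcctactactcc
Fosb (chr7:19310046-19310175, minus strand): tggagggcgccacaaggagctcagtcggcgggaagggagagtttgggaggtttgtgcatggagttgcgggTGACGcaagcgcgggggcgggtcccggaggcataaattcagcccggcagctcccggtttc
Jun (chr4:95052223-95052352, minus strand): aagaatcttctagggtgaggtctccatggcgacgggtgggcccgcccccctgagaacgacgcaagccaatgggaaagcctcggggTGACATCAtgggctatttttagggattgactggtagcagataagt
Junb (chr8:84978749-84978878, minus strand): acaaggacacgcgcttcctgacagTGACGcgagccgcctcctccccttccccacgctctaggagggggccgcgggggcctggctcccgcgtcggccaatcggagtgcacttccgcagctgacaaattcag
Atf3 (chr1:191183334-191183463, minus strand): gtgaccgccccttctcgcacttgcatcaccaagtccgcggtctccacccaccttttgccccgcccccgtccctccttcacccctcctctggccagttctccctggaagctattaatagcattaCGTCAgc
Maff (chr15:79347390-79347519, plus strand): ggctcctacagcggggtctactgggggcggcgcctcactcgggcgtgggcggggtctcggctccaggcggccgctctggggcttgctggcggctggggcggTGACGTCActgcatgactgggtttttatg
Mafk (chr5:139791406-139791535, plus strand): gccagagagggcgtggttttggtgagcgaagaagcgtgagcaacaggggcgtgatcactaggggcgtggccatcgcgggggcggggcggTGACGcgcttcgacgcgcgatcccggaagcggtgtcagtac
Fos carries the half-site at positions -129 to -125 and -66 to -62, and Junb at -106 to -102. In Maff the full element spans -29 to -22. Atf3 has its match at -7 to -3, next to the start. A match describes letters in these windows and not binding. The RefSeq starts of Atf3 and Fosl2 and the Maff start shown lie inside the gene spans used for counting. The Jund window lies 1210 bases upstream of the gene's start in the annotation used for counting, and neither it nor the Fosl2 window held any of the 4 motifs.

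AP-1 transcripts were more abundant in ADPKD kidney than in WT kidney. Of the 10 genes 8 passed the filter of a mean of at least 0.5 FPKM, and 7 of these 8 rose and 0 fell (limma, Benjamini-Hochberg adjusted p below 0.05). Among all 17001 genes tested 9.43% rose and 4.78% fell. The 7 genes were Fos, Fosl2, Junb, Jund, Atf3, Maff and Mafk, and Jun missed the threshold (adjusted p = 0.0564). Both ADPKD libraries lay above both WT libraries for all 10 genes, which held for 43.6% of all genes tested, while 21.0% lay lower without overlap. The 8 tested genes passed the filter in each group by itself, the lowest being Fos with a WT mean of 0.524 FPKM. Their median log2 fold change was 2.44, against 0.18 for all genes. Fold changes are differences of log2(FPKM + 1), which understates the change of low genes.

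Fits that left out a library made fewer calls. Such a fit has 1 residual degree of freedom and assumes that the lone library varies like the other group. Fewer genes of the whole table were called in each fit without a library too. Without WT replicate 1 the remaining WT level of Fos, 0.354 FPKM, lay under the filter, so Fos entered that fit only through ADPKD. Without ADPKD replicate 2 limma called 0 of the 8 genes, with 7 at an unadjusted p under 0.05, and 0 genes of the whole table, with 5039. The 8 log2 fold changes stayed positive in all of these fits, with a median of 2.43 without ADPKD replicate 1, 2.30 without ADPKD replicate 2, 2.35 without WT replicate 1 and 2.59 without WT replicate 2. With no filter on low values 0 of the 10 genes and 0.00311% of all genes were called higher, with all 10 at an unadjusted p under 0.05. Scaling between libraries moved the median of all genes to -0.00858 (quantile) and 0.00604 (median of ratios), and the median of the 8 genes to 2.23 (quantile) and 2.26 (median of ratios). Of all called genes 66.4% were higher in ADPKD on the deposited scale, 47.9% after quantile normalization and 45.7% under median-of-ratios scaling. In whole kidney a change in the number of cells of a type and a change of RNA per cell cannot be told apart.

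**Figure D1:**
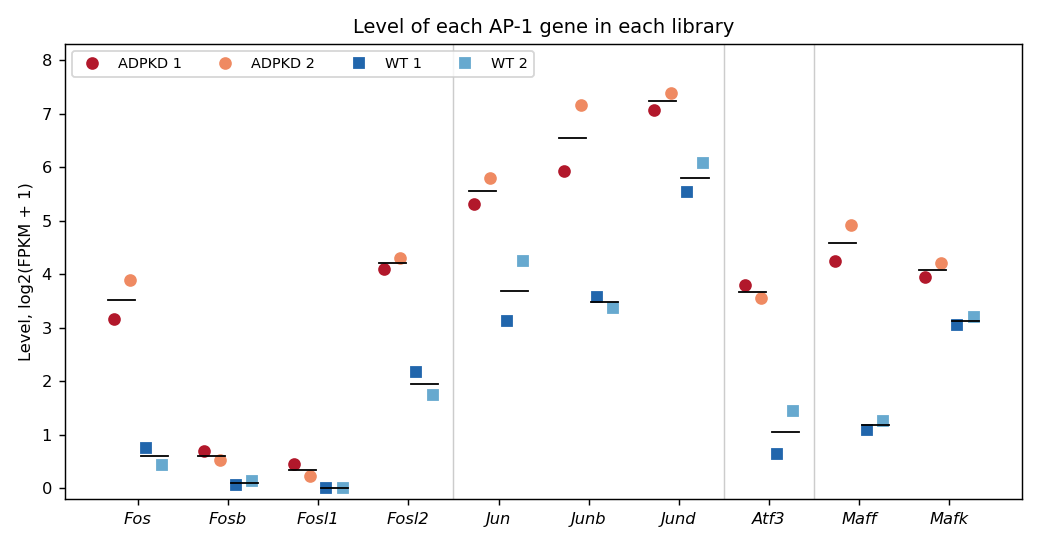
Level of each gene as log2(FPKM + 1) in the 4 libraries, with circles for ADPKD, squares for WT and a line for the mean of each group. For every gene the ADPKD circles lie above the WT squares, and the gap is widest for Maff, at 18.01 and 29.4 FPKM in ADPKD against 1.13 and 1.39 FPKM in WT.

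Fos was higher in ADPKD kidney, with few reads in WT kidney. Fos (chromosome 12, 85473890 to 85477273 on GRCm38, plus strand), which encodes the short-lived founding member of the family, stood at 7.95 and 13.8 FPKM in ADPKD libraries, against 0.694 and 0.354 FPKM in WT libraries. The reads behind these values numbered 347 and 647 in ADPKD and 30 and 15 in WT. The ratio of the mean FPKM was 20.7, the largest of the 9 genes with reads in WT, and limma gave a log2 fold change of 2.92 with SE 0.31 (adjusted p = 0.0202). Fos was no longer called without ADPKD replicate 2 (adjusted p = 0.0703) or WT replicate 2 (0.0580). With a pseudocount of 0.1 the log2 fold change was 4.14.

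Fosl2, which encodes Fra-2, a Fos protein without the strong activation domain of Fos, was the most abundant Fos gene in both groups. Fosl2 (chromosome 5, 32135801 to 32157842, plus strand) stood at 16.2 and 18.7 FPKM in ADPKD kidney, against 3.48 and 2.33 FPKM in WT kidney. Fosl2 rose, with a log2 fold change of 2.25 by limma (SE 0.21; adjusted p = 0.0183). Leaving out either ADPKD replicate ended the Fosl2 call, with an adjusted p = 0.0545 without replicate 1 and 0.0784 without replicate 2.

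Fosb and Fosl1, which encodes Fra-1, were barely detected and did not pass the filter. Fosb (chromosome 7, 19302696 to 19310051, minus strand), whose product is best known from stimulated neurons, stood at 0.613 and 0.433 FPKM in ADPKD and at 0.0436 and 0.0979 FPKM in WT. Its reads numbered 71 and 54 in ADPKD libraries and 5 and 11 in WT libraries. Fosl1 (chromosome 19, 5447547 to 5455946, plus strand) stood at 0.371 and 0.173 FPKM in ADPKD, from 14 and 7 reads, and was listed at 0 in both WT libraries. A count of 0 allows up to 3 reads, or 0.0803 and 0.0820 FPKM in WT replicates 1 and 2, so Fosl1 was at least 3.35-fold higher in ADPKD than in WT, set against the mean of these per-library floors and before counting error in ADPKD. ADPKD replicate 2 alone gave 2.13-fold and ADPKD replicate 1 alone 4.57-fold, and the lower Poisson limits of the ADPKD reads gave 1.68-fold. The exact Poisson intervals (95%) of the ADPKD reads ran from 7.65 to 23.5 and from 2.81 to 14.4 and cover counting error only. Fosl1 shares 57.2% of its exon length with Ccdc85b on the opposite strand, and reads of the pair cannot be told apart by strand; Ccdc85b stood at 6.81 and 5.89 FPKM in ADPKD and 5.38 and 6.90 FPKM in WT. In an alternative fit added after the data were seen, voom on the recovered reads of all genes with at least 10 reads, Fosb was called higher (limma adjusted p = 0.0330), as were 9.51% of 22403 genes. Fosl1 entered that fit only through its ADPKD reads, so its value there is not given.

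Jun genes held the highest levels of the family. Jund (chromosome 8, 70698949 to 70700616, plus strand), often described as the brake on proliferation among Jun proteins, stood at 134 and 166 FPKM in ADPKD kidney, against 45.5 and 66.0 FPKM in WT kidney. It was the most abundant member in all 4 libraries and rose, with a limma log2 fold change of 1.43 (SE 0.25; adjusted p = 0.0344). Of its exon length 52.6% lies under Gm11175 on the opposite strand, and without strand the reads of the pair cannot be told apart there. The Jund call was lost in each of the 4 fits that left out a library, with adjusted p from 0.0593 to 0.130, and with median-of-ratios scaling (adjusted p = 0.0967).

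Junb, whose product can oppose or replace Jun in dimers, showed the largest absolute spread between ADPKD libraries. Junb (chromosome 8, 84974484 to 84978718, minus strand) had a level of 59.6 and 142 FPKM in the ADPKD libraries, against 10.9 and 9.32 FPKM in WT. ADPKD replicate 2 was 2.38 times ADPKD replicate 1, yet even the lower ADPKD library was far above both WT libraries. By limma the log2 fold change was 3.07 with SE 0.44 (adjusted p = 0.0277), and leaving out an ADPKD library gave 3.69 (replicate 1 out) or 2.45 (replicate 2 out). Its call held without ADPKD replicate 1 (adjusted p = 0.0354) and was lost without ADPKD replicate 2 (0.0662), WT replicate 1 (0.0557) or WT replicate 2 (0.0729), and with median-of-ratios scaling (0.0532). Prdx2, which covers 7.52% of the Junb exon length, stood at 75.8 and 59.0 FPKM in ADPKD and 90.1 and 67.4 FPKM in WT (adjusted p = 0.539).

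Jun itself did not pass the test. Jun (chromosome 4, 95049034 to 95052222, minus strand), the classical partner of Fos, stood at 38.6 and 54.5 FPKM in ADPKD libraries and at 7.74 and 17.96 FPKM in WT libraries. WT replicate 2 was 2.32 times WT replicate 1, the widest WT spread among the Jun genes. By limma the log2 fold change of Jun was 1.86 with SE 0.43 (adjusted p = 0.0564). Leaving out WT replicate 2 gave 2.42 (adjusted p = 0.0426), and leaving out WT replicate 1 gave 1.31 (0.0853). Voom on recovered reads (adjusted p = 0.0341) and a filter at a mean of 5 FPKM (0.0489) also placed Jun past the threshold, while median-of-ratios scaling (0.119) and quantile normalization (0.0724) did not. Junos, an antisense gene that covers 7.28% of the Jun exon length, stood at 0.510 and 0.511 FPKM in ADPKD and at 0.0925 and 0.202 FPKM in WT, under the filter.

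Atf3, a stress-induced member that forms repressive dimers by itself and activating ones with Jun proteins, was among the largest rises. Atf3 (chromosome 1, 191170296 to 191218039, minus strand) stood at 12.9 and 10.8 FPKM in ADPKD kidney, against 0.556 and 1.73 FPKM in WT kidney. Unlike most members it was higher in ADPKD replicate 1 than in ADPKD replicate 2. Atf3 rose by a log2 fold change of 2.63 with SE 0.32 in limma (adjusted p = 0.0229). Leaving out either ADPKD library ended this call, at an adjusted p of 0.0782 without replicate 1 and 0.0924 without replicate 2.

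The small Maf genes differed widely from each other. Maff (chromosome 15, 79346621 to 79359076, plus strand), the inducible small Maf gene, stood at 18.01 and 29.4 FPKM in ADPKD libraries, against 1.13 and 1.39 FPKM in WT libraries. The limma log2 fold change of Maff, 3.41 with SE 0.27 (adjusted p = 0.0165), was the largest of the 8 tested genes, and among all settings run only leaving out ADPKD replicate 2 (0.0662) or the filter on low values (0.0667) ended its call. Mafk (chromosome 5, 139791513 to 139802653, plus strand), which is expressed more constantly, stood at 14.5 and 17.5 FPKM in ADPKD, against 7.31 and 8.13 FPKM in WT. Mafk rose by 0.96 (SE 0.17, limma adjusted p = 0.0353), the smallest rise among the called members, and lost its call in each of the 4 fits without a library, with adjusted p from 0.0741 to 0.134. It was also not called after quantile normalization (adjusted p = 0.0647) or with median-of-ratios scaling (0.110). Tmem184a, which covers 4.33% of the Mafk exon length, stood at 4.86 and 3.68 FPKM in ADPKD and 4.89 and 4.59 FPKM in WT. By group mean Maff stood at 23.7 FPKM and Mafk at 15.97 FPKM in ADPKD, and Maff at 1.26 FPKM and Mafk at 7.72 FPKM in WT.

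**Figure D2:**
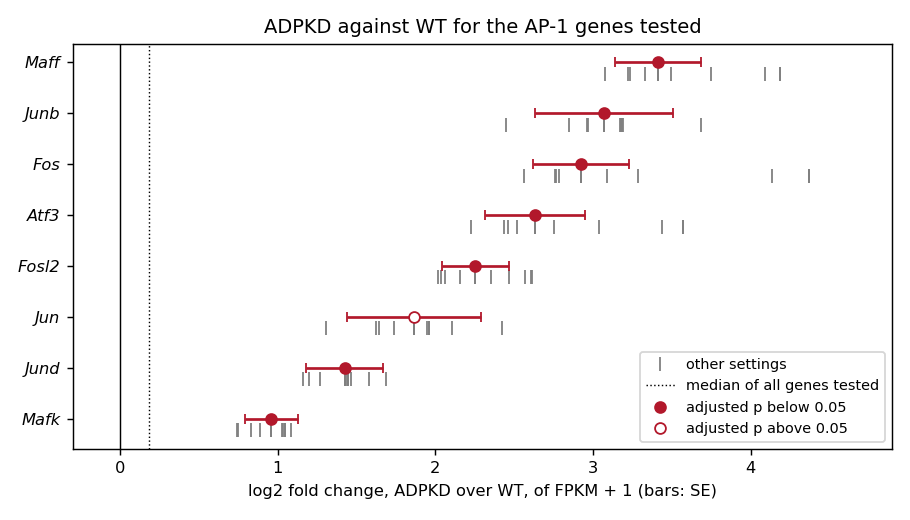
Log2 fold change of FPKM + 1, ADPKD over WT, for the 8 tested genes, with bars for the SE, filled points for called genes and grey ticks for the other settings and fits without a library. All points and ticks lie to the right of 0.18, the dotted median of all genes, and range from 0.96 for Mafk to 3.41 for Maff among the reported values.

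Jun genes made up most of the AP-1 transcript pool in both groups. The 10 genes summed to 302 and 453 FPKM in ADPKD libraries, against 77.4 and 107 FPKM in WT libraries, and the ratio of the means was 4.09. Jund contributed 33.0% of the gain in the sum, Junb 31.8% and Jun 11.8%, while the 4 Fos genes together contributed 8.98%. The share of Jund was 40.4% ± 5.34 in ADPKD and 60.2% ± 1.91 in WT (SD, n = 2 each), and the share of Junb was 25.5% ± 8.20 in ADPKD and 11.4% ± 3.84 in WT. Jun genes as a group held 78.3% ± 2.33 of the pool in ADPKD and 84.9% ± 2.83 in WT, a difference of -6.59 percentage points. Fos genes held 7.81% ± 0.712 in ADPKD and 4.02% ± 2.02 in WT, a difference of 3.79 points. For each of these shares the groups did not overlap, and the exact two-sided permutation p was 0.333, the smallest that 2 against 2 libraries can give.

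Within the small Maf pair the shares differed in opposite directions. Maff held 6.22% ± 0.370 of the pool in ADPKD and 1.38% ± 0.118 in WT, and Mafk held 4.32% ± 0.664 in ADPKD and 8.51% ± 1.32 in WT (SD, n = 2 each). Their joint share overlapped between the groups, at 10.7% and 10.3% in ADPKD and 10.9% and 8.87% in WT. Shares of FPKM describe transcripts per length and not protein or dimers.

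**Figure D3:**
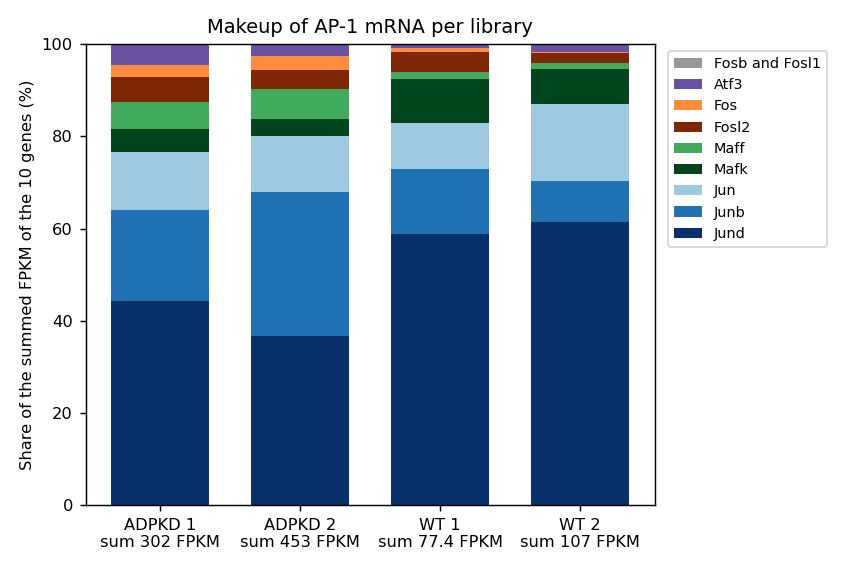
Share in percent of the summed FPKM of the 10 genes taken by each gene in each library, with the sum in FPKM under each bar. Jund fills 44.2% and 36.7% of the ADPKD bars and 58.8% and 61.5% of the WT bars, and Junb 19.7% and 31.3% of the ADPKD bars and 14.1% and 8.68% of the WT bars.

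The order of the levels by mean FPKM was not the same in the groups. In ADPKD kidney Jund and Junb came first, and their ranges overlapped, followed by Jun. Maff, Fosl2 and Mafk came next, with ranges that ran into each other, then Atf3 and Fos, whose ranges overlapped, then Fosb and Fosl1. In WT kidney Jund was followed by Jun and Junb, whose ranges overlapped, then Mafk and Fosl2. Maff, Atf3 and Fos came next, with Maff inside the range of Atf3 and Atf3 overlapping Fos, then Fosb and Fosl1.

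Replicates of the same group differed by member. In ADPKD 7 of the 10 genes were higher in replicate 2 than in replicate 1, by 1.16 times for Fosl2 up to 2.38 times for Junb, and Atf3, Fosb and Fosl1 were lower. The median gene of all tested stood at 0.891 times in the same comparison. In WT 6 genes were higher in replicate 2, led by Atf3 at 3.11 times, and Fos, Fosl2 and Junb were lower. Fos was thus highest in ADPKD replicate 2 and lowest in WT replicate 2.

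Among 11 further bZIP genes related to AP-1, 8 were tested and limma called 0 of them, with a median log2 fold change of 0.55. At an unadjusted p under 0.05 there were 2. Batf passed the filter only through its ADPKD level, at 0.996 and 6.34 FPKM in ADPKD and 0.155 and 0.356 FPKM in WT. The median of the other 7 tested genes was 0.50. Mafg, the remaining small Maf gene, stood at 30.1 and 24.8 FPKM in ADPKD and 21.3 and 17.1 FPKM in WT (adjusted p = 0.146). Atf7 stood at 4.51 and 3.45 FPKM in ADPKD and 2.54 and 2.04 FPKM in WT (adjusted p = 0.117). Whether these genes differ from the members in their response was not tested. For this list and those that follow, the share over all genes tested was 9.43% rising and 4.78% falling.

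Among 6 partners of the small Maf proteins 5 were tested, 2 rose and 0 fell, with a median of 0.99. Nfe2l2, which encodes the antioxidant regulator NRF2, stood at 50.7 and 58.6 FPKM in ADPKD kidney, against 23.5 and 22.7 FPKM in WT kidney (log2 fold change 1.20, SE 0.15, adjusted p = 0.0240). Bach1, a repressor that competes with NRF2 for the same sites, stood at 7.71 and 10.7 FPKM in ADPKD, against 4.13 and 4.01 FPKM in WT (log2 fold change 0.99, SE 0.20, adjusted p = 0.0451). Nfe2l1, Nfe2l3 and Bach2 did not pass the test, and Nfe2 was under the filter. After quantile normalization 1 of the 5 was called, and with median-of-ratios scaling and in each fit without a library 0 were.

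Of 19 kinases upstream of AP-1, 18 were tested, 3 rose, 1 fell and 14 did not pass, with a median of 0.25. Over all genes tested 9.43% rose and 4.78% fell. Map3k1, which activates the JNK branch that phosphorylates Jun, stood at 27.1 and 31.9 FPKM in ADPKD, against 6.20 and 5.29 FPKM in WT (log2 fold change 2.18, SE 0.17, limma adjusted p = 0.0164). Rps6ka3, a kinase activated by ERK, rose by 0.87 (SE 0.16, adjusted p = 0.0382), as did Rps6ka1 (0.87, adjusted p = 0.0440), which was named after its values were seen. Map2k6, an activator of p38 kinases, stood at 2.05 and 1.004 FPKM in ADPKD and 5.04 and 5.03 FPKM in WT, and fell by 1.29 in log2 units (SE 0.25, adjusted p = 0.0429). Transcript levels of kinases say nothing of their activity. Under quantile normalization only Map3k1 rose and the median was 0.05, and under median-of-ratios scaling Map3k1 and Rps6ka3 rose. Of the 18 kinases tested, 1 passed the filter only through its ADPKD level. The calls of Rps6ka1, Rps6ka3 and Map2k6 were not kept in any fit without a library. The median of the kinases was 0.12 without ADPKD replicate 1, 0.35 without ADPKD replicate 2, 0.35 without WT replicate 1 and 0.17 without WT replicate 2.

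Of the serum response factor and its cofactors, which drive Fos transcription through the serum response element, 2 of 6 rose and 0 fell, with a median of 0.69. These were Mrtfb (log2 fold change 1.02, SE 0.16, adjusted p = 0.0316) and Mrtfa (0.94, SE 0.17, adjusted p = 0.0362), coactivators controlled by actin. Srf itself stood at 13.6 and 14.9 FPKM in ADPKD and 7.92 and 11.8 FPKM in WT (adjusted p = 0.191). Elk1, Elk3 and Elk4, the MAP kinase-regulated cofactors, did not pass the test. With median-of-ratios scaling 1 of the 6 was called, and with quantile normalization and in each fit without a library 0 were.

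MAP kinase phosphatases, which switch the kinases off again and are often induced by them, rose in 4 of 10 cases and 0 fell, with a median of 1.06. Dusp5, which acts on ERK in the nucleus, stood at 6.49 and 5.19 FPKM in ADPKD, against 0.792 and 0.719 FPKM in WT (log2 fold change 1.96, SE 0.18, limma adjusted p = 0.0183). Dusp4 rose by 1.61 (SE 0.22, adjusted p = 0.0258) and Dusp8 by 1.75 (SE 0.28, adjusted p = 0.0320). The remaining called gene, Dusp6, which acts on ERK in the cytoplasm, rose by 0.64 (adjusted p = 0.0497) and was named after its values were seen. Under quantile normalization 3 rose and 1 fell, under median-of-ratios scaling 2 rose and 1 fell, and without ADPKD replicate 1 there were 2 rises. In each of the fits without another library 0 of the 10 were called.

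Factors that bind AU-rich elements, which shorten the life of Fos and other early mRNAs, rose in 1 of 6 cases, against 9.43% of all genes tested. Zfp36l1, a decay factor, stood at 115 and 179 FPKM in ADPKD, against 48.1 and 49.7 FPKM in WT (log2 fold change 1.53, SE 0.25, limma adjusted p = 0.0320). That call was lost with median-of-ratios scaling and without ADPKD replicate 2 or either WT replicate. Zfp36 reached 22.2 FPKM in ADPKD replicate 1, 66.4 FPKM in ADPKD replicate 2 and 11.2 and 17.7 FPKM in WT (adjusted p = 0.168). Zfp36l2, Elavl1, Hnrnpd and Khsrp did not pass the test.

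Of 20 genes listed in textbooks as AP-1 targets 17 were tested, 11 rose and 0 fell, with a median of 1.63. Of the 17 genes 8 passed the filter only through their ADPKD level (Mmp3, Mmp9, Timp1, Cd44, Il6, Ccl2, Ptgs2 and Lif), and of the other 9 genes 7 rose. Mmp13, a collagenase gene under the filter, stood at 0.322 and 0.225 FPKM in ADPKD and 0.794 and 0.623 FPKM in WT. Timp1, which inhibits metalloproteinases, stood at 55.1 and 60.8 FPKM in ADPKD, against 0.613 and 0.375 FPKM in WT (log2 fold change 5.31, SE 0.17, limma adjusted p = 0.00985). Plaur, the urokinase receptor gene, rose by 2.75 (SE 0.21, adjusted p = 0.0164). Lif, which encodes a cytokine of the interleukin-6 family, stood at 7.74 and 4.97 FPKM in ADPKD, against 0.05001 and 0.0766 FPKM in WT (log2 fold change 2.76, SE 0.25, adjusted p = 0.0178). Ccnd1, the cyclin D1 gene, which also answers to many other factors, stood at 29.4 and 33.5 FPKM in ADPKD and 26.5 and 40.8 FPKM in WT (adjusted p = 0.873); it and Mmp13 were chosen after their values were seen. Fewer of the targets were called in each fit without a library. Their median log2 fold change was 1.99 without ADPKD replicate 1, 1.81 without ADPKD replicate 2, 1.53 without WT replicate 1 and 1.67 without WT replicate 2. These medians include genes that passed the filter only through ADPKD.

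Of 20 immediate-early genes outside AP-1, 18 were tested, 13 rose and 0 fell, with a median of 2.15. Egr2 and Nr4a2 passed the filter only through ADPKD, and 12 of the other 16 rose. Klf6 (log2 fold change 2.87, SE 0.23, limma adjusted p = 0.0165), Myc (2.61, SE 0.24, adjusted p = 0.0183) and Klf4 (1.79, SE 0.19, adjusted p = 0.0202) had the smallest adjusted p of the list. Fewer of the early genes were called in each fit without a library. Their median was 2.61 without ADPKD replicate 1, 1.69 without ADPKD replicate 2, 2.07 without WT replicate 1 and 2.19 without WT replicate 2. Under median-of-ratios scaling 9 rose, Egr2 among them. Of 10 heat shock genes, 1 rose and 2 fell, with a median of -0.17, against 9.43% rising and 4.78% falling over all genes tested. Hspb1 rose by 2.11 (adjusted p = 0.0164), while Hspe1 (-1.23, adjusted p = 0.0278) and Hspd1 (-0.85, adjusted p = 0.0390), which encode mitochondrial chaperones, fell; these were named after their values were seen. No heat shock gene fell in the fits without a library, 1 fell under median-of-ratios scaling, and the rise of Hspb1 was lost without ADPKD replicate 2.

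**Figure D4:**
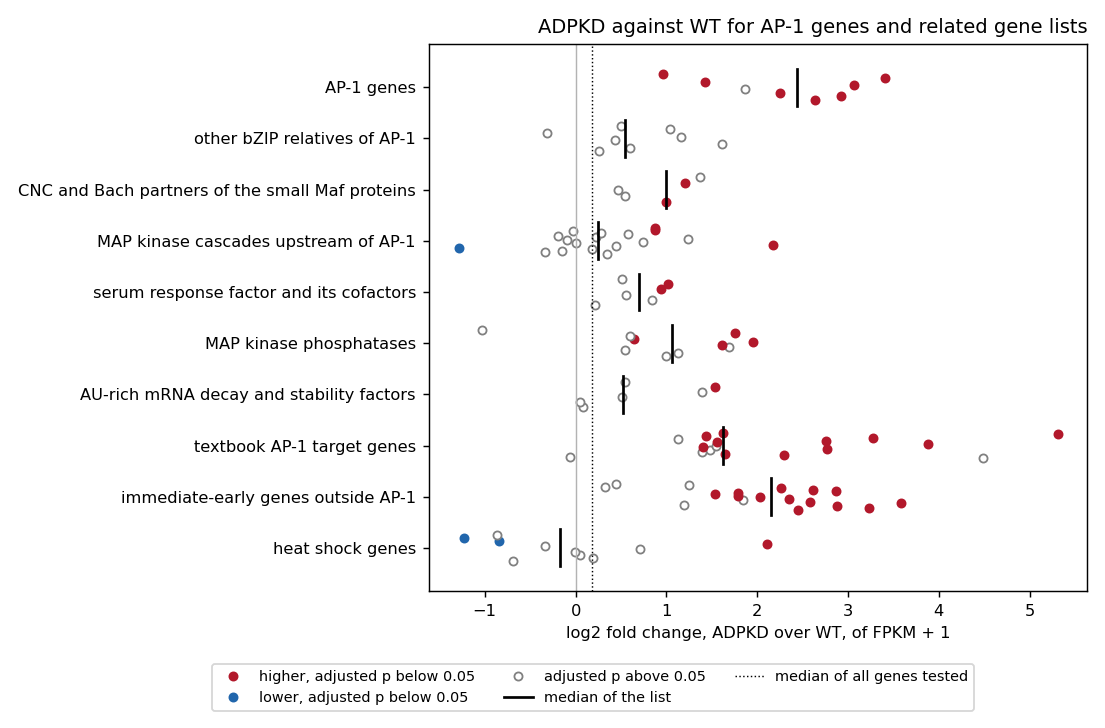
Log2 fold change of FPKM + 1, ADPKD over WT, of each tested gene in 10 lists, with filled points for called genes, a bar for the list's median and a dotted line for the median of all genes. The AP-1 median is 2.44, that of the immediate-early genes outside AP-1 is 2.15, and that of the MAP kinase cascades is 0.25.

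The genes whose profile over the 4 libraries was most like the median profile of the 8 tested members were Vat1, Serpinb6a, Spry1, B4galnt1 and Tagln, out of 8507 genes with a mean of at least 5 FPKM. The measure was the Euclidean distance between log2(FPKM + 1) values centred on each gene's mean, and it ran from 0.207 for Vat1 to 0.267 for Tagln. Spry1, which encodes an inhibitor of receptor tyrosine kinase signals, stood at 27.9 and 39.6 FPKM in ADPKD and at 5.05 and 6.54 FPKM in WT. The likeness rests on 4 libraries and is a description.

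Sums of marker genes differed between the groups in the same libraries as the AP-1 genes. The 10 macrophage markers summed to 555 FPKM in ADPKD replicate 1, 1307 FPKM in ADPKD replicate 2 and 56.3 and 97.1 FPKM in WT, and 8 of the 10 rose. Of these 10 markers 1 passed the filter only through ADPKD, and 7 of the other 9 rose. The 10 neutrophil markers summed to 110 and 481 FPKM in ADPKD and to 1.005 and 1.72 FPKM in WT. Retnlg, Mmp8 and Ly6g were listed at 0 in WT, and 8 of the 9 tested passed the filter only through ADPKD. Ltf alone gave 64.3 FPKM of the first ADPKD sum but 5.56 FPKM of the second. Cxcr2 was also slightly lower in the second ADPKD library (1.24 and 1.20 FPKM), while all other neutrophil markers were higher there. The macrophage and neutrophil sums, like 7 of the 10 AP-1 genes, were higher in ADPKD replicate 2 than in ADPKD replicate 1. So were the proximal tubule, collecting duct, endothelial, T and NK cell and B cell sums, while the fibroblast, thick ascending limb and haemoglobin sums were lower. Fibroblast and myofibroblast markers summed to 424 and 331 FPKM in ADPKD and to 85.3 and 81.4 FPKM in WT, with 6 of 8 rising. T and NK cell markers summed to at most 3.07 FPKM in ADPKD and 5.26 FPKM in WT, and B cell markers to at most 2.74 FPKM in ADPKD and 1.26 FPKM in WT.

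Kidney cell types were present in all 4 libraries. Proximal tubule markers summed to 1385 and 2038 FPKM in ADPKD, against 3415 and 3641 FPKM in WT, with 6 of 10 falling. Thick ascending limb markers summed to 598 and 362 FPKM in ADPKD, against 1087 and 1413 FPKM in WT, with 3 of 6 falling. Collecting duct markers overlapped between the groups, at 534 and 565 FPKM in ADPKD and 668 and 491 FPKM in WT. Endothelial markers summed to 49.9 and 107 FPKM in ADPKD and to 153 and 190 FPKM in WT. Haemoglobin genes summed to 276 and 108 FPKM in ADPKD and to 2300 and 491 FPKM in WT. The 8 macrophage rises became 6 under quantile normalization and 2 under median-of-ratios scaling, and the 6 proximal tubule falls became 3 (quantile) and 5 (median of ratios). Without ADPKD replicate 2 limma called 0 genes of any marker list, and without either WT library 1 macrophage, 3 fibroblast and 0 neutrophil markers rose and 0 proximal tubule markers fell. Without ADPKD replicate 1 fewer macrophage, fibroblast and proximal tubule markers were called than with all 4 libraries. Their median log2 fold changes in that fit were 3.60, 1.53 and -1.57, against 2.90, 1.86 and -1.63 with all 4 libraries. The neutrophil markers are left out there, since most were tested only through their ADPKD level. The part of cell makeup, blood content and sex in the AP-1 values was not tested.

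**Figure D5:**
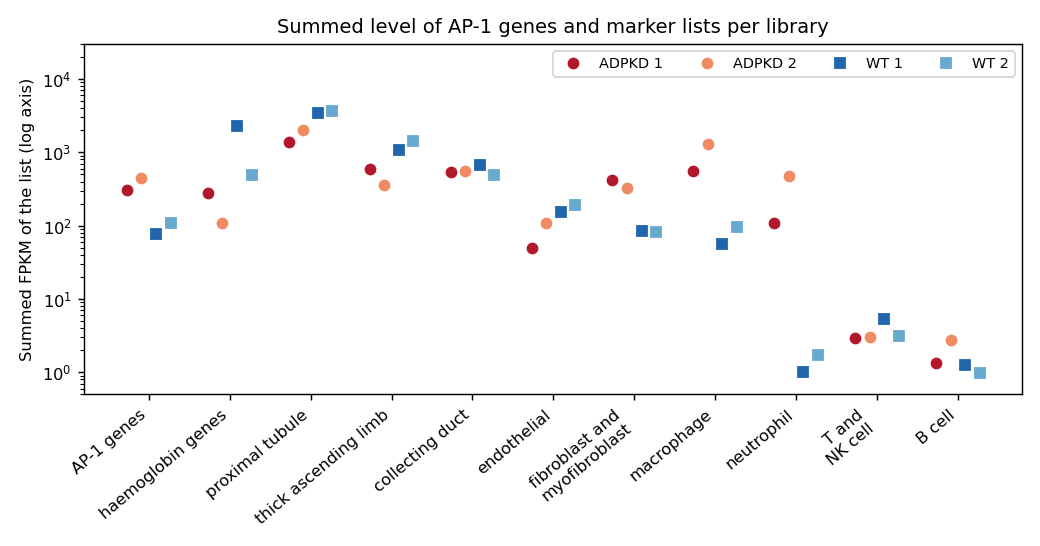
Summed FPKM, on a log axis, of the 10 AP-1 genes, of the haemoglobin genes and of 9 marker lists in each library, with circles for ADPKD and squares for WT. Macrophage, neutrophil and B cell sums are higher in both ADPKD libraries than in WT and highest in ADPKD replicate 2, as is the AP-1 sum of 453 FPKM. The B cell sum in ADPKD is mostly that of Cd79b.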

How the data were processed

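RNA of whole kidney was isolated with TRIzol and selected with oligo dT, per the labels' protocols. The deposited values were FPKM per gene, used as the authors made them; Bowtie2, DESeq2 and mm10 are named in the submitters' processing notes without roles. Exon positions and lengths, in bases, came from a second deposited table, which per the file headers was written by featureCounts 1.6.0 with Ensembl GRCm38 release 98, counting reads with several alignments and without a strand option. Its 16 columns of per-sample values name 8 libraries that the 4 sample labels do not identify and were not used. Of 32176 rows 25 had names turned into dates and were left out, with 0.118% to 0.151% of the reads of a library. FPKM times exon length gave whole reads (tolerance 0.01) for 100% of values, which gave the depth; 1 read per kilobase was worth 0.0501 to 0.0556 FPKM.

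ADPKD was compared with WT on log2(FPKM + 1) with limma-trend (limma 3.58.1 under R 4.3.3) over 17001 genes with a mean of at least 0.5 FPKM; residual degrees of freedom were 2 and prior ones 2.55. P-values are two-sided, adjusted by Benjamini-Hochberg over all genes tested and called below 0.05. The code of the fit was also run on simulated counts with a fixed spread and no sex difference. That run checks the code and not the calls made in these libraries. Members and lists were chosen with earlier results of these data known. All members, Pkd1 and the 3 genes of smallest adjusted p of each pathway list were named by rule. So were all genes of lists of 6 or fewer and the 5 nearest profiles. Named outside the rule were Xist, Ddx3y, Batf, Ccnd1, Mmp13, Rps6ka1, Dusp6 and 3 heat shock genes. Ltf, Cxcr2 and single markers of the proximal tubule, T and NK cell and B cell lists were named after their values were seen. Other targets and early genes under the filter in WT and genes overlapping a member were also named outside the rule. The values of 1 gene that the rule names are not reported here. Of 195 list symbols all were matched, 4 through RefSeq synonyms. Promoter sequences are RefSeq's (GRCm38.p6). The alternatives were a pseudocount of 0.1, no filter, a mean of at least 5 FPKM, quantile and median-of-ratios scaling, the robust prior, voom on recovered reads, a replicate block and leaving out each library.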

Additional observations from a re-analysis of the deposited data

How the results depend on the processing

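The number of AP-1 genes called higher, 7 of 8, was 0 of 10 with no filter on low values (all 10 at an unadjusted p under 0.05), 4 with median-of-ratios scaling and between 0 and 4 without a library. It was between 6 and 8 with a pseudocount of 0.1, a mean of at least 5 FPKM, quantile normalization, the robust prior, voom and the replicate block. Voom on genes with at least 10 reads, added later, let in Fosl1 only through its ADPKD reads, so its count is not given. The number called lower was 0 in all settings. Over all genes the 1604 called higher became 1 with no filter, 999 after quantile normalization, 740 with median-of-ratios scaling and between 0 and 435 without a library. The 813 called lower became 0 with no filter, where 7251 genes had an unadjusted p under 0.05, and between 0 and 250 without a library. The cause of these shifts was not tested, except that fits without a library rest on fewer samples. No log2 fold change of the 8 tested members turned negative in any setting. With the replicate number as a replicate block 8 members (Jun too, adjusted p = 0.0435) and 1220 genes were called higher and 625 lower; same-numbered libraries deviated together with a correlation of 0.188 over 17001 genes, but the labels give no pairing. The difference in the share of Fos genes was 2.36 to 5.22 points and that of Jun genes -8.59 to -4.59 points without a library, and 4.54 and -4.54 points over the 7 Fos and Jun genes alone. Fosb, with 5 and 11 reads in WT, and Fosl1, with 0, lie at the limit of the depth.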
